A study of Mus musculus with 2 samples.

Results

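The circadian clock genes described here are 10 genes of the mouse clock feedback loop, Per1, Per2, Per3, Cry1, Cry2, Arntl, Clock, Nr1d1, Nr1d2 and Dbp, taken as every probe annotated to them by symbol, gene ID or accession on an Illumina bead array. They had 17 of the 25697 probes on the array, and all 10 genes had at least 1 probe. The knockout (KO) sample was epidermis of C57BL6 mice at 5 days of age with floxed alleles of CaSR, the calcium-sensing receptor, and a Cre recombinase driven by the K14 promoter (CaSR fl/fl Cre K14 driven), which is active in basal keratinocytes. The control (CON) sample was epidermis of littermates of the same age that carried the floxed alleles (CaSR fl/fl CON). In each group RNA from 3 mice was combined and hybridised to 1 array, so each value below is 1 measurement of 1 pool, carries no replicate error and has no significance test. The number of arrays limits the precision. The treatment protocol in the labels once calls the knockout VDR, against CaSR in every other label. The hour of day at which the skin was taken, the sex of the pups and the efficiency of the deletion are details that the labels do not state.

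In the clock loop the proteins CLOCK and BMAL1 (encoded by Arntl) bind E-box sequences and switch on the Per and Cry genes, whose products then repress CLOCK and BMAL1. A further loop runs through Nr1d1 and Nr1d2, which encode the REV-ERB receptors and are also driven through E-boxes. REV-ERB proteins repress Arntl, so in mouse peripheral tissues the transcripts of Arntl and of Nr1d1 and Dbp peak at nearly opposite times of day. Skin holds such a clock in its keratinocytes and hair follicles. A difference in clock phase between the samples could therefore move Arntl one way and Nr1d1, Dbp and the Per genes the other way, which is the question put to the data here. The size and direction of each move would depend on the hours compared, which the labels do not state. A cycling transcript passes the same level on its rise and its fall, so similar values do not show the same phase.

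Motifs of the kind these factors bind were looked for in RefSeq promoters (GRCm38.p6). The genes were grouped by their known roles and not by these matches. Of the 10 genes, 9 matched the promoter table, and Per2 did not. In the 250 bases before an annotated start, the E-box CACGTG was found in 2 of these 9 genes (Per1 and Cry1) and in 6.02% of all 32851 promoters, and its variant CACGTT in 3 genes (Cry1, Cry2 and Nr1d1) and in 3.85% of promoters. The D-box TTATGTAA, the element that DBP protein binds, was found in 1 gene (Per3, at 2 positions) and in 0.819% of promoters. The core AGGTCA, to which REV-ERB receptors bind within a longer element, was found in 3 genes (Clock, Nr1d2 and Per1) and in 14.0% of promoters. Both strands were searched. Dbp held none of these motifs in its window, and Arntl none in either of its windows. The lines below show 1 match for each detected member that had any, with the motif in capitals and 17 bases on each side, read 5′ to 3′ on the gene's strand. For Per1, which had 2 different motifs, the E-box is shown. Starts are those of annotated transcripts, and several genes have more than 1. The counts above are of genes with a match in any window, whereas the percentages are of single promoters. They are therefore not like for like, since a gene with several windows has more chances of a match. The Per1 window lies inside the gene, which begins at position 69095108 of chromosome 11, before an internal start. The motif starts 166 bases before that start in Per1 (chr11:69098766-69098805, plus strand), 28 in Nr1d1 (chr11:98775383-98775422, minus strand) and 166 in Cry2 (chr2:92434213-92434252, minus strand). For the receptor core it starts 77 bases before the start in Nr1d2 (chr14:18239161-18239200, minus strand) and 119 in Clock, also at an internal start (chr5:76303599-76303638, minus strand).
Per1, E-box: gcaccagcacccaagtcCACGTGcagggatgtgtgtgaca
Nr1d1, E-box variant on the other strand: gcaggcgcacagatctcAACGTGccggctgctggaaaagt
Cry2, E-box variant on the other strand: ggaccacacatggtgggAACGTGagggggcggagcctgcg
Nr1d2, receptor core: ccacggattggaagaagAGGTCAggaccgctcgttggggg
Clock, receptor core on the other strand: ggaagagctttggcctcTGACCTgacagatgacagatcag
A match describes these letters only, and binding at these positions was not measured.

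Signals are the authors' normalised intensities, on a linear scale with background left in. A probe counted as detected where its deposited detection p-value was at most 0.01, which held for 42.0% of probes in the KO sample and 42.4% in the CON sample. The median of all probes was 148.9 in each. Of the 17 clock gene probes, 10 were detected in both samples and 7 in neither, and 8 of the 10 genes had a detected probe. The 8 detected genes differed little between KO and CON. Per2 had the highest log2 ratio (0.21) and Clock the lowest (-0.24), and Arntl, Nr1d1 and Dbp lay between -0.03 and -0.01. Signals of different probes are not set against each other, so the genes are not ranked by level. In bulk epidermis, fewer cells of a type and less RNA per cell cannot be told apart.

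**Figure D1:**
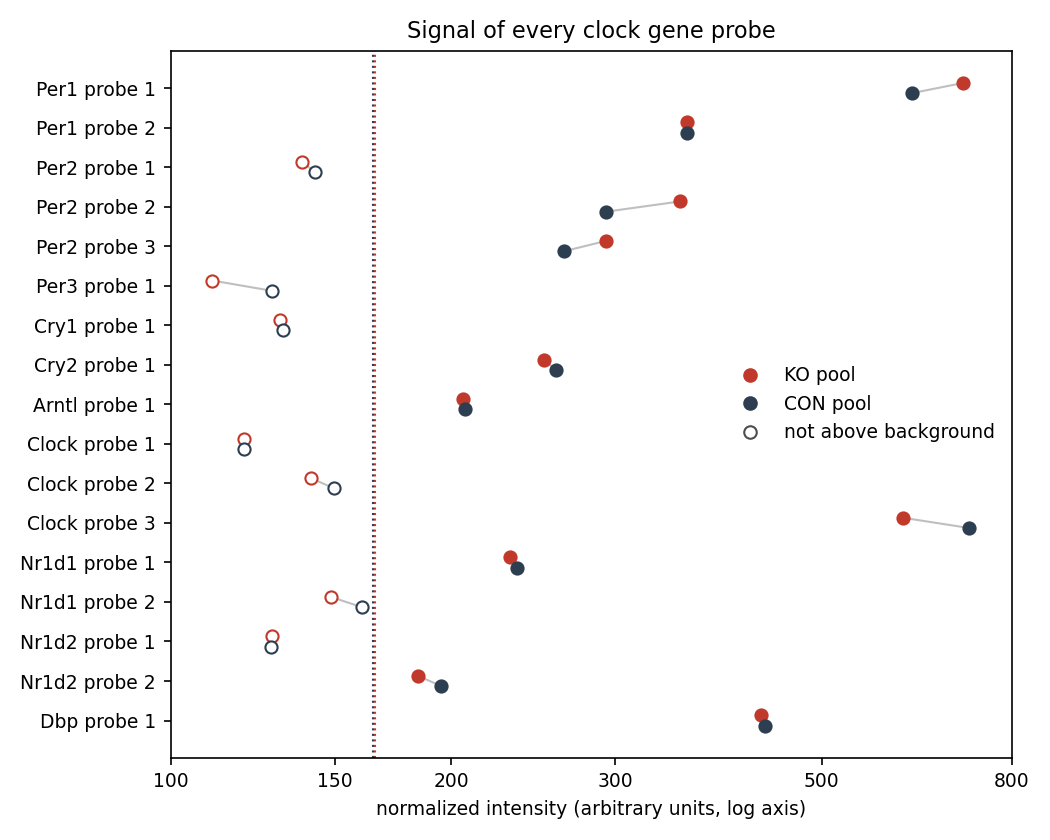
Normalised intensity of each of the 17 clock gene probes in the KO pool (red) and the CON pool (dark blue), on a log axis. Filled points were detected, open points were not, and the dotted lines mark the dimmest detected probe of each array. All 10 detected pairs lie close together, with visible gaps for Per1 probe 1, both detected Per2 probes and Clock probe 3.

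Arntl, which encodes the activator BMAL1, had 1 probe. Its signal was 205.9 in the KO sample and 206.9 in the CON sample, a log2 ratio (KO over CON) of -0.01. Of the genes detected in both samples, 95.1% had a log2 ratio at least as far from 0.

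Clock, the partner of BMAL1 in the activating complex, had 3 probes. The detected probe gave 611.5 in KO and 720.2 in CON, a log2 ratio of -0.24 or 1.18-fold lower in KO. The other 2 probes were not above background, with 141.5 and 119.9 in KO against 149.9 and 119.8 in CON. The lower signal for Clock thus rested on 1 probe. When the undetected probes were averaged in, its log2 ratio was -0.11.

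Per1 encodes a repressor of the loop and is also induced within hours by glucocorticoid and by stress signals in many tissues. Its brighter probe gave 709.9 in KO and 625.0 in CON, and its other probe 358.7 in KO and 358.6 in CON. The probes therefore disagreed, with log2 ratios of 0.18 and 0.0004 and a mean of 0.09.

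Per2 encodes a repressor that acts with PER1. Its probes gave 352.0 in KO and 293.1 in CON, and 293.1 in KO and 264.3 in CON. Both detected probes were higher in KO, with log2 ratios of 0.26 and 0.15 and a mean of 0.21, or 1.15-fold. The third Per2 probe was not above background, at 138.5 in KO and 142.9 in CON.

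Per3, the remaining Per gene, was not above background on its only probe, with 110.9 in KO (detection p-value 0.999) and 128.5 in CON (detection p-value 0.650). The same held for Cry1, a strong repressor of CLOCK and BMAL1, with 131.1 in KO (detection p-value 0.490) and 131.9 in CON (detection p-value 0.484). No fold is given for either gene. Cry2, the other cryptochrome gene, was detected at 251.7 in KO and 259.2 in CON, a log2 ratio of -0.04.

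Nr1d1 (REV-ERB alpha) had 231.5 in KO and 235.6 in CON on its detected probe, a log2 ratio of -0.03. Its other probe was not above background in either sample, at 148.5 in KO and 160.4 in CON. For Nr1d2 (REV-ERB beta) the detected probe gave 184.4 in KO and 195.3 in CON, a log2 ratio of -0.08, and the other probe was not above background at 128.5 in KO and 128.1 in CON. Both genes thus differed by less than 1.06-fold on these signals.

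Dbp encodes a D-box binding factor that carries the clock's rhythm to output genes. Its probe gave 430.2 in KO and 434.3 in CON, a log2 ratio of -0.01. Of the genes detected in both samples, 90.5% had a log2 ratio at least as far from 0.

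For 1840 genes with several detected probes, the log2 ratios of a gene's probes scattered with an SD of 0.11, pooled over genes. It is the scatter of single probes and covers no variation between mice, pools or arrays. A mean of 2 probes scatters less, so this SD is too wide for Per1 and Per2, which had 2 detected probes each. Of the 8 detected members, Clock lay further from 0 than 2 such SDs (0.22), as did 8.57% of all 7937 genes detected in both samples. Per2, at 0.21, lay inside this single-probe width. Both calls turned with the processing. Against the same 0.22, Per2 lay outside with its brightest probe (0.26) and Clock lay inside with undetected probes averaged in (-0.11). On non-normalised intensities Per2 was at 0.28 with median scaling and 0.33 without scaling, and Clock at -0.20 and -0.16. The median of all genes was 0.05 and 0.09 in these settings. Measured from 0, Per2 lay outside and Clock inside in both settings. Measured from that median, both genes lay outside. Of the 8 members, 0 were at least 1.5-fold apart, against 0.416% of all genes, and 0 were at least 1.2-fold apart, against 5.32% of all genes. The median log2 ratio of the 8 members was -0.02, and that of all genes was 0.005. Below 0 were 6 of the 8 members, against 48.1% of all genes. For Arntl, Nr1d1 and Dbp that sign was positive on non-normalised intensities scaled to the same median (0.02, 0.01 and 0.05), where the median of all genes was 0.05.

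**Figure D2:**
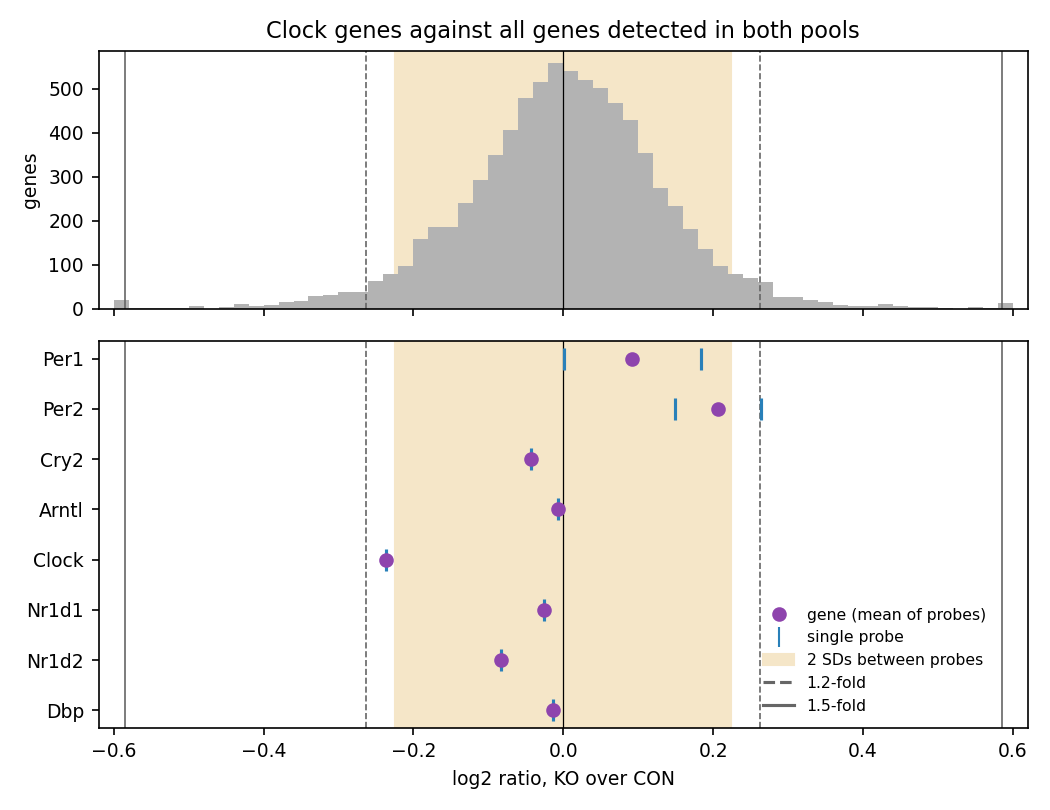
Top, number of genes at each log2 ratio of KO over CON among the 7937 genes detected in both pools, with values beyond 0.6 placed in the end bins. Bottom, the 8 detected clock genes as the mean of their probes (purple) and as single probes (blue), with the band of 2 SDs between probes of a gene and lines at 1.2-fold and 1.5-fold. Clock at -0.24 lies just outside the band and Per2 at 0.21 just inside it.

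Arntl peaks at nearly the opposite time to Nr1d1 and Dbp. On the deposited intensities all of these genes lay below 0, each by less than 1 SD between probes. On the non-normalised ones all lay above 0, but the median of all genes was 0.05 with median scaling and 0.09 without. Arntl and Nr1d1 lay below that median and Dbp just above it. The log2 ratio of Dbp minus that of Arntl was -0.01, and that of Nr1d1 minus that of Arntl was -0.02. Nr1d2 minus Arntl was -0.08. All 3 differences were smaller than 1 SD between probes on the deposited intensities. After background correction Dbp minus Arntl was -0.0002, Nr1d1 minus Arntl was -0.04 and Nr1d2 minus Arntl was -0.21. The SD between single probes on that scale was 0.20. A difference between genes scatters more than a single probe, so this SD cannot place the -0.21 outside the scatter. Arntl and Nr1d2 lie among the 1985 dimmest detected genes, whose background-corrected log2 ratios had an SD over genes of 0.29. Per1 minus Arntl was 0.10 (0.13 after background correction) and Per2 minus Arntl was 0.21 (0.38).

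Within the E-box group (Per1, Per2, Nr1d1, Nr1d2 and Dbp) 2 genes were above 0 and 3 below, with a median of -0.01. On the deposited intensities the Per genes lay above 0 and the REV-ERB genes and Dbp below. Per1 was at 0.0004 on 1 of its 2 detected probes. Nr1d1 and Dbp, at -0.03 and -0.01 as deposited, lay above 0 on the non-normalised intensities. The activators Arntl and Clock had a median of -0.12, which is the midpoint of -0.01 and -0.24. The widest gap between members was Per2 minus Clock, at 0.44 in log2 ratio. A shift between the samples in the genes of opposite phase, Arntl, Nr1d1 and Dbp, was not detectable at the precision of 1 array for each group. That statement does not cover the Per genes. Per1 and Per2 lay above Arntl by 0.10 and 0.21, and Nr1d2 lay below it by 0.08. Whether the gaps of the Per genes reflect clock phase was not tested. Whether mice within a pool differed in phase cannot be read from pooled RNA, and how strongly these genes cycle in 5-day-old epidermis was not measured.

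Background left in the signals draws ratios of dim probes towards 1, so the ratios were also computed after background correction. That correction started from the non-normalised intensities and normalised them anew, so the 2 sets of ratios differ in more than background. After the correction Per2 was 1.29-fold higher in KO, with a log2 ratio of 0.36, and Clock was 1.23-fold lower in KO, with a log2 ratio of -0.30. All 8 members lay within 2 SDs between single probes on that scale (0.39), which 7.43% of all genes exceeded. That width is too wide for Per1 and Per2, which are means of 2 probes. Nr1d2 had -0.23, Per1 0.12, Cry2 -0.09 and Nr1d1 -0.05. Arntl and Dbp were the closest to 0 of the 8 members, each at -0.02. At least 1.2-fold apart were 2 of 8 members, Per2 and Clock, against 19.1% of all genes, and 0 were at least 1.5-fold apart, against 2.12% of all genes.

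**Figure D3:**
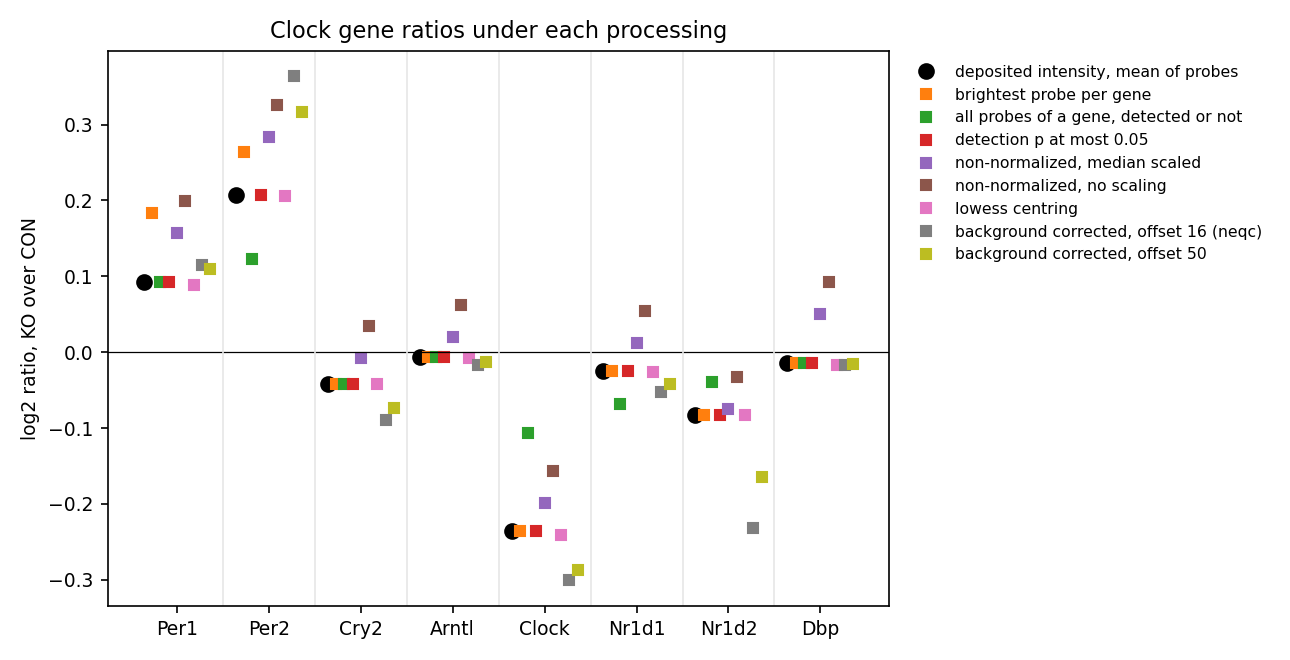
Log2 ratio of KO over CON for each detected clock gene under 9 processings, with the deposited intensities as black circles. Per1 and Per2 are above 0 and Clock and Nr1d2 below 0 in all of them, whereas Cry2, Arntl, Nr1d1 and Dbp lie on both sides of 0.

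Other genes of the clock loop were described for 21 genes, of which 12 were detected in both samples. Among these, 3 had a log2 ratio above 0 and 9 below, with a median of -0.06, against 48.1% of all genes below 0. At least 1.2-fold apart was 1 of the 12 (Usp2), against 5.32% of all genes. The lists are described by role.

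Of 7 further genes driven through E-boxes, 4 were detected, 1 above 0 and 3 below, with a median of -0.09. Usp2, which encodes a ubiquitin protease with a rhythmic transcript, had 712.9 in KO and 879.3 in CON on its brightest probe, a log2 ratio of -0.30. Bhlhe40, which encodes DEC1, a repressor at E-boxes that is also induced by many acute stimuli, had 553.3 in KO and 487.8 in CON, a log2 ratio of 0.18. Tef, a D-box factor related to DBP, had 420.0 in KO and 457.6 in CON, a log2 ratio of -0.12. Ciart, a repressor of CLOCK and BMAL1, was chosen after its values were seen because its probes pointed in opposite directions. They gave 172.6 in KO and 203.3 in CON, and 187.9 in KO and 174.0 in CON. Hlf, Bhlhe41 and Wee1 were not above background.

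Of 3 further genes placed with the phase of Arntl, Nfil3 was detected. Nfil3, a repressor at D-boxes, had 574.7 in KO and 634.3 in CON, a log2 ratio of -0.14. Npas2, which can stand in for Clock, and Arntl2 were not above background. Rora, a receptor that activates Arntl, had 1461.9 in KO and 1460.0 in CON, a log2 ratio of 0.002, and Rorb was not above background.

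Of 9 genes for kinases, ubiquitin ligases and other partners of PER and CRY proteins 6 were detected, 1 above 0 and 5 below, with a median of -0.06. Csnk1e, a kinase of PER proteins, had 461.0 in KO and 556.7 in CON, and 989.6 in KO and 1051.7 in CON, with a mean log2 ratio of -0.18. Timeless, a partner of the clock proteins that also acts at replication forks, had 314.0 in KO and 283.1 in CON on its detected probe, a log2 ratio of 0.15. Btrc, a subunit of the ligase that marks PER proteins for degradation, had 217.5 in KO and 240.3 in CON on its detected probe, a log2 ratio of -0.14.

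**Figure D4:**
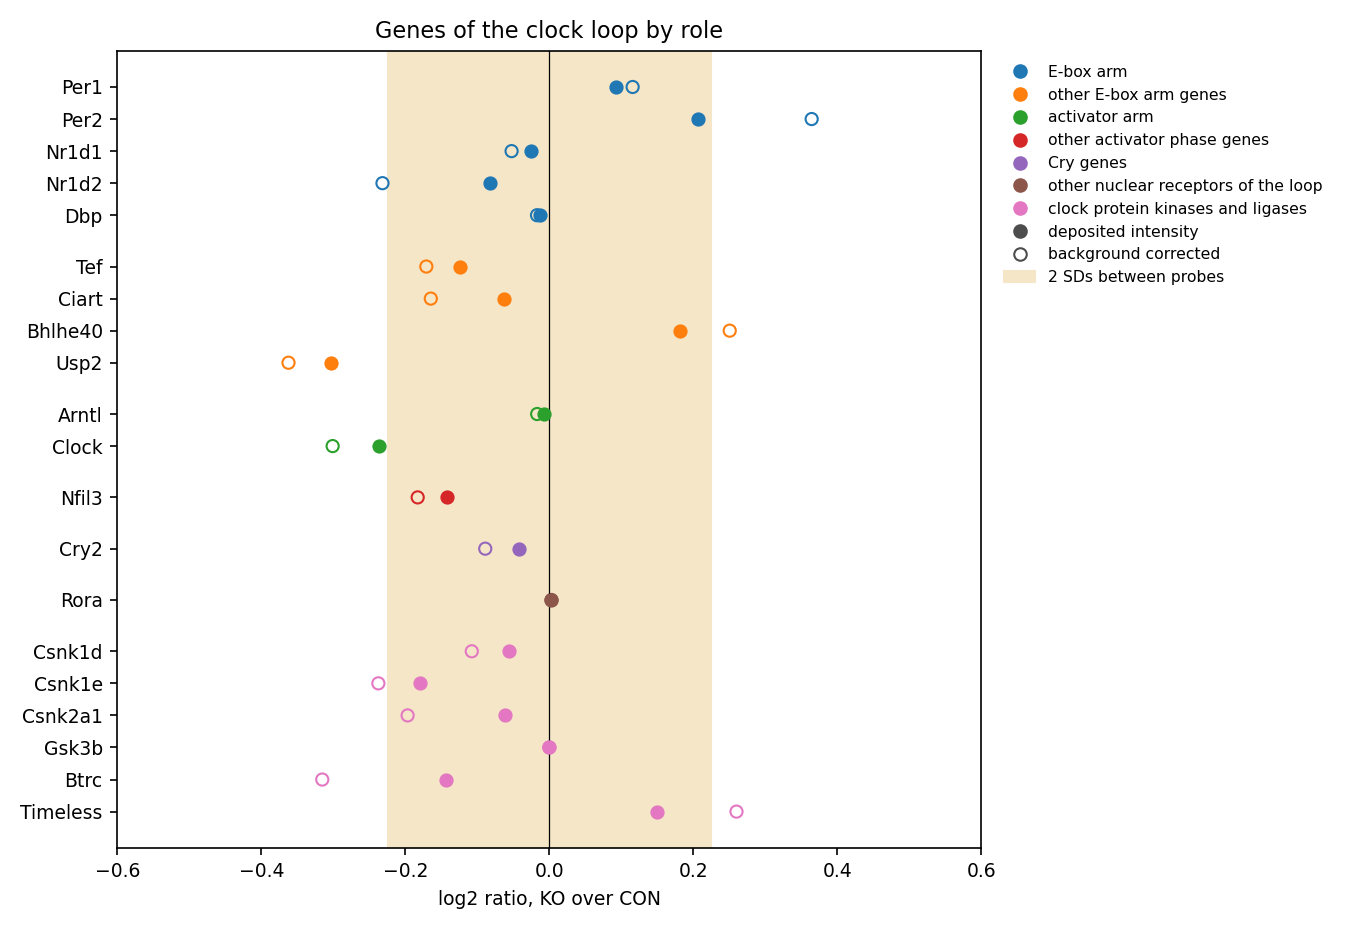
Log2 ratio of KO over CON for the 8 clock genes and 12 other detected genes of the loop, coloured by role. Filled points are deposited intensities, open points are background-corrected values, and the band marks 2 SDs between probes on the deposited scale. Usp2 and Clock lie outside the band as filled points, and the E-box group has points on both sides of 0.

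Per1, Per2 and Bhlhe40 also respond to hormones and acute stimuli, so genes with such responses are given beside them. Of 7 glucocorticoid-responsive genes 6 were detected in both samples, 3 above 0 and 3 below, with a median log2 ratio of 0.03. Fkbp5, a chaperone of the glucocorticoid receptor, had 248.5 in KO and 216.6 in CON, a log2 ratio of 0.20. Dusp1, a phosphatase of MAP kinases, had a log2 ratio of 0.15, and Ddit4, an inhibitor of mTOR, one of -0.11. Of 8 immediate early genes 6 were detected, 3 above 0 and 3 below, with a median of -0.01. Fos had 1163.8 in KO and 830.4 in CON, a log2 ratio of 0.49. Junb, another AP-1 subunit, had 1132.0 in KO and 1420.9 in CON, a log2 ratio of -0.33, and Egr1 had one of 0.15. Their part in the values of Per1 and Per2 was not tested.

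The tissue label was checked against markers. All 6 keratinocyte markers were detected in both samples, with a median log2 ratio of -0.05, led by Krt5 at -0.28, Krt10 at 0.22 and Krt14 at -0.20. Of the hair follicle markers 5 of 6 were detected, 4 of them below 0, with a median of -0.21 and a summed signal of 17514 in KO and 21453 in CON. Krt71 was at -0.40, Krt31 at -0.32 and Hoxc13 at 0.35. All 5 T cell markers were detected and below 0, with a median of -0.14, a summed signal of 3190 in KO and 3456 in CON, and Nkg7 at -0.24, Cd3d at -0.17 and Cd3e at -0.14. Their part in the clock gene values was not tested. Fibroblast markers were detected for 3 of 7 genes, including Vim at -0.22, Dcn at 0.05 and Col1a1 at -0.003. Of the other markers 4 of 5 were detected for melanocytes (median -0.01) and 4 of 5 for skeletal muscle (0.04). For Langerhans and myeloid cells 5 of 6 were detected (0.02), and for endothelium 1 of 4 (0.04). Erythroid markers were detected for 2 of 4 genes (median -0.49), Hba-a1 at -0.89 and Slc4a1 at -0.08. Each had 1 detected probe, and Hbb-b1 was not above background in either sample. The Casr probe was not above background in either sample, at 148.2 in KO and 122.9 in CON, and gave no check of the genotype.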

How the data were processed

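Epidermis was lifted from back skin with dispase, and total RNA of 3 mice was combined for each group, per the labels' protocols. The submitters' processing notes list GenomeStudio 2011.1 but no method of normalisation. The authors deposited a linear intensity and a detection p-value for each of 25697 probes, before and after normalisation. The authors' value table was identical to the normalised one (largest difference 0). Median intensities before normalisation were 166.1 in KO and 161.3 in CON. The lowest normalised intensity was 106.2 in both, so background was left in.

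Probes were named through gene ID (16938), accession (7418) or symbol (467) against RefSeq of GRCm38.p6, used for names, and 874 kept the file's symbol. A gene's log2 ratio is the mean over its probes that both samples detected (p-value up to 0.01) (Python 3.11.15, pandas 2.3.3), which 7937 genes had. Background correction used limma 3.58.1 (neqc, offset 16, background inferred from the detection p-values). It started from the non-normalised intensities and ended with quantile normalisation between the arrays. The gene summary was tested on simulated data. With 1 array a group no test was possible. Named were all 10 members and up to 3 genes of each other list with the largest absolute log2 ratio. Some listed genes are not reported here, and counts leave them out. The members and lists were chosen with earlier results of these data known. No genes of most similar pattern are named, since 2 samples give no pattern.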

Additional observations from a re-analysis of the deposited data

How the results depend on the processing

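Among the 9 alternatives, the authors' value table was identical to the reported intensities and could not change a value. A detection limit of 0.05 left the values of all 8 detected members unchanged. Counts over the 9 alternatives include both. The 9 alternatives recomputed 72 values of single members, and 68 of them stayed within 1 SD between probes (0.11) of the reported value. The exceptions were Per2 without scaling (0.33) and after background correction with offset 16 (0.36), Nr1d2 after that correction (-0.23) and Clock with undetected probes averaged in (-0.11). The count of members at least 1.2-fold apart, 0 as reported, was 1 with the brightest probe of each gene, 1 on non-normalised intensities scaled to the same median and 1 without scaling, in each case Per2. It was 2 after background correction with offset 16 and 2 with offset 50, in both cases Per2 and Clock. The count at 1.5-fold was 0 under all 9. Per1, Per2, Clock and Nr1d2 kept their sign in 9 of 9 alternatives, Cry2 in 8, and Arntl, Nr1d1 and Dbp in 7. Over all genes the count at 1.2-fold was 422, of which 46.9% were higher in KO, against 620 (75.0%) with median scaling, 891 (89.3%) without scaling, 1515 after background correction with offset 16 and 1084 with offset 50. The count at 1.5-fold was 33, of which 39.4% were higher in KO, against 38 (19 higher), 43 (65.1%), 168 (51.2%) and 78 under the same alternatives. The median log2 ratio of all genes was 0.005 as reported, 0.05 with median scaling and 0.09 without scaling. Signs and counts in those settings were taken from 0 and not from this median. The cause of the changes was not tested. No paired analysis was possible because each group has 1 array, and no replicate could be left out. Dim signals limit Arntl, Nr1d1 and Nr1d2, which lie among the 1985 dimmest detected genes, whose log2 ratios had an SD over genes of 0.12 as deposited and 0.29 after background correction.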
